A study of Drosophila melanogaster with 9 samples.

Results

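The CYP4 clan is one of the major branches of the animal cytochrome P450 family, and its genes were followed here in the Malpighian tubules of adult Drosophila melanogaster. Members were all genes of the count table whose FlyBase symbol starts with Cyp4 and a letter, or with Cyp311, Cyp312, Cyp313, Cyp316 or Cyp318. That rule gave 32 members among 17611 genes, and it used no measured value. Of the 32 members, 25 passed the filter on low counts and were tested, and 7 did not pass it (Cyp313a1, Cyp313a2, Cyp313a5, Cyp4c3, Cyp4d14, Cyp4d2 and Cyp4d21).

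The study sequenced polyadenylated RNA of tubules from 3 groups of flies, with 3 libraries in each group. The alleles esg-Gal4 and tub-Gal80ts together with UAS-GFP were present in all 3 groups. They place transgenes under a driver active in progenitor cells of the gut and in the stem cells of the tubules. Control flies carried nothing further. The yki3SA flies added UAS-Yki-3SA, which encodes a constitutively active version of Yorkie, a growth-promoting transcription co-activator. The flies called ITP-i below added UAS-Yki-3SA together with UAS-ITP-i, a hairpin that targets the ion transport peptide gene ITP by RNA interference. Virgin flies spent 6 to 8 days at 18 °C, where the driver is held silent, followed by 8 days of induction at 29 °C, and RNA came from 80 tubules of each genotype. The titles mark the control and yki3SA libraries, but not the ITP-i libraries, as a re-analysis, so the effect of ITP-i and that of anything else that sets those libraries apart cannot be told apart. No group carried a neutral RNAi transgene. The labels do not say whether the libraries of a group came from separate cultures or dissections, so p-values measure only the spread between these libraries.

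Cytochrome P450 enzymes are haem proteins of the endoplasmic reticulum or mitochondria that insert an oxygen atom into their substrates, and the microsomal ones receive electrons from the reductase Cpr and in some reactions from cytochrome b5. Enzymes of the CYP4 family in mammals are best known for hydroxylating fatty acids at the end of the chain, which opens a route to their breakdown. In insects the CYP4G enzymes make cuticular hydrocarbons from long aldehydes, and other members of the clan have been tied to insecticide tolerance. The tubule of the fly moves water, ions and organic solutes into the urine and is one of its main tissues of detoxification, and it is built of principal cells, stellate cells and a small set of stem cells.

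Libraries held 34640437 to 49338340 counts on genes. The share of these counts on the CYP4 clan was 0.1514% to 0.2215% in control, 0.2165% to 0.2621% in the yki3SA libraries and 0.1938% to 0.2177% in the ITP-i libraries. Levels of single genes are given as CPM, which are counts set relative to the library's total and scaled with TMM factors, and levels are compared between genes only as CPM per kb of exon. A gene was called, and is said to have risen or fallen, where its Benjamini-Hochberg adjusted p in edgeR's quasi-likelihood test was under 0.05 over all genes tested. The gene yki averaged 73.3 CPM in control, 83.0 CPM with yki3SA and 77.9 CPM with ITP-i, and it was called in no comparison. ITP averaged 37.0, 68.4 and 58.6 CPM, higher in yki3SA than in control (log2 fold change 0.89, adjusted p = 0.0030) and with no call between ITP-i and yki3SA (-0.22, adjusted p = 0.348). The driver is active in few cells of this tissue, so these levels say little of the transgenes. Markers of principal cells were abundant in every library, with summed levels of 11895 to 15177 CPM in control libraries, 6161 to 7772 in yki3SA libraries and 9929 to 12714 in ITP-i libraries.

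Per kb of exon, Cyp4e2 was the most abundant member in control tubules and Cyp4p3 the most abundant in both tumour groups. In control, Cyp4e2 averaged 319 CPM per kb (257 to 376 over the libraries), Cyp4g1 averaged 245 CPM per kb (82.6 to 526) and Cyp4p3 averaged 126 CPM per kb (94.1 to 160.0). The ranges of Cyp4g1 and both of its neighbours in that order overlapped. Cyp4p1 followed at 111 CPM per kb, Cyp4e3 at 81.7, Cyp4e1 at 46.6, Cyp4d8 at 36.6 and Cyp4s3 at 26.2. In yki3SA, Cyp4p3 averaged 471 CPM per kb (405 to 532), above Cyp4e2 at 275 CPM per kb (253 to 291) with no overlap. In ITP-i, Cyp4p3 averaged 485 CPM per kb (422 to 521), again with no overlap with Cyp4e2 at 212 CPM per kb (197 to 238). At the other end, 12 of 32 members averaged under 1 CPM in control, 17 in yki3SA and 14 in ITP-i.

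The make-up of the clan's summed level differed between groups. Cyp4p3 took 15.1%, 14.6% and 7.91% of the summed CPM per kb in the control libraries. In yki3SA it took 40.0%, 43.5% and 41.4%, and in ITP-i it took 45.7%, 41.2% and 41.8%. Both tumour groups lay above all control libraries, without overlap. Cyp4e2 took 35.6%, 37.6% and 21.6% in the control libraries, 21.1%, 26.6% and 25.8% in those of yki3SA and 17.6%, 19.1% and 19.5% in those of ITP-i. Control library 3 stood apart through Cyp4g1, which took 44.2% of the clan's level there against 11.9% and 9.63% in the other control libraries.

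**Figure D1:**
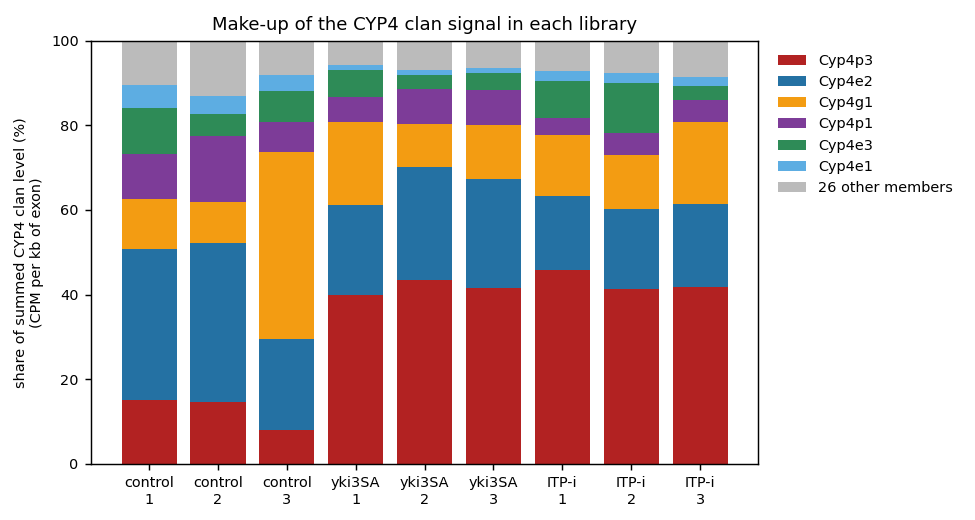
Share of the summed CYP4 clan level (CPM per kb of exon, percent) taken by 6 members and by the 26 other members together, 1 bar per library. Cyp4p3 holds 7.91% to 15.1% of the bar in control and 40.0% to 45.7% in yki3SA and ITP-i, and Cyp4g1 holds 44.2% in control library 3.

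Between yki3SA and control, 12 of the 25 tested members changed, 10 of them downward. The members that fell were Cyp4e1, Cyp4ad1, Cyp4ac1, Cyp4ac2, Cyp4ae1, Cyp4d1, Cyp4d8, Cyp4s3, Cyp313a4 and Cyp313b1, and the members that rose were Cyp4p2 and Cyp4p3. Among all 10253 genes tested, 30.1% were called in this comparison, 16.2% higher and 14.0% lower. The 12 called of 25 exceed that share. The excess is in the 10 lower members, while the 2 higher ones are below the background share. The median log2 fold change of the tested members was -0.55, and it was 0.07 over all genes tested. A change of at least 2-fold was called in 8 members against 12.6% of all genes. The libraries of yki3SA and control did not overlap for 16 tested members against 45.8% of all genes. The count of called members was 7 without control library 2 and 7 without yki3SA library 3, each time with 2 higher and 5 lower. Over all genes 2634 and 2365 were called in those fits, against 3091 in the main fit. In those 2 fits the members lost a larger part of their calls, so the excess rests partly on single libraries. Without control library 1 or 3 it was the other way, with 11 and 12 members called and 2177 and 2249 of all genes. Scaling by total counts moves the median of all genes in this comparison from 0.07 to 0.37, and it gave 2 members higher and 7 lower.

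Between ITP-i and yki3SA, 7 tested members changed, 5 upward (Cyp4e1, Cyp4ac2, Cyp4ac3, Cyp4ae1 and Cyp313a4) and 2 downward (Cyp4p1 and Cyp4p2). The background was 20.7% of all genes called, 10.6% higher and 10.1% lower, so the count of members lies near what that share of 25 gives. The median log2 fold change was 0.46 in the tested members and -0.04 over all genes. A call of at least 2-fold was made for 3 members against 8.61% of all genes, and libraries did not overlap for 15 members against 41.8%. The count rests on single libraries: it was 3 without yki3SA library 1, 3 without yki3SA library 2, 1 without yki3SA library 3, 1 without ITP-i library 1, 3 without ITP-i library 2 and 2 without ITP-i library 3. Only 1 member, Cyp4e1, kept its call in every one of the 20 alternatives tried. Scaling by total counts moves the median of all genes here from -0.04 to -0.24, and it gave 3 members higher and 4 lower.

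Between ITP-i and control, 6 tested members changed, with Cyp4p3 higher and Cyp4e1, Cyp4e2, Cyp4g15, Cyp4p1 and Cyp313b1 lower. The background was 10.5% of all genes called, 6.37% higher and 4.14% lower, and the share of members called lower exceeds it. The median log2 fold change was -0.29 in the tested members and 0.00 over all genes. A call of at least 2-fold was made for 3 members against 6.43% of all genes, and libraries did not overlap for 11 members against 30.7%. The 3 comparisons share libraries, so their values for a member are given side by side and not set against each other by a test. In all, 5 members were called between yki3SA and control and called in the opposite direction between ITP-i and yki3SA (Cyp4e1, Cyp4p2, Cyp4ac2, Cyp4ae1 and Cyp313a4), against 13.5% of all genes. That count was 1 without yki3SA library 3, ITP-i library 1 or ITP-i library 3, 2 without control library 2, control library 3, yki3SA library 2 or ITP-i library 2, and 3 without yki3SA library 1.

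**Figure D2:**
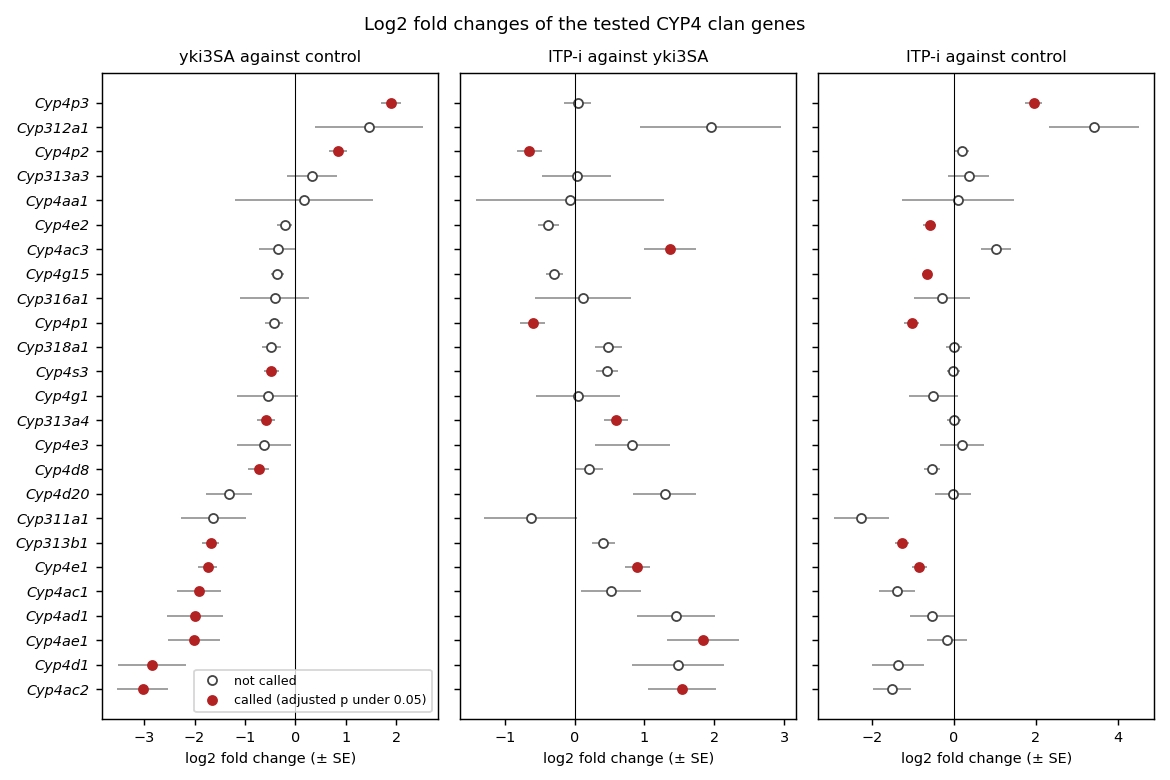
Log2 fold change (points) and its standard error (bars) of the 25 tested members in the 3 comparisons, 3 libraries in each group, with filled points for adjusted p under 0.05 in edgeR's quasi-likelihood test. In the comparison of yki3SA with control 20 of 25 points lie below 0, and Cyp4p3 lies at 1.90 there and at 1.94 between ITP-i and control.

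Several members sit beside each other in the genome with no other protein-coding gene between them. The clan forms 7 such runs in the Ensembl annotation, and the runs Cyp4p2, Cyp4p1 and Cyp4p3, Cyp4ad1, Cyp4e2 and Cyp4e1, and Cyp4ac1, Cyp4ac2 and Cyp4ac3 hold 9 of the 16 members called in at least 1 comparison. Neighbouring genes of 1 subfamily are close in sequence, and how the authors' counting treated reads that match more than 1 of them is not given in the sources used here.

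Genes of the Cyp4p run did not move as a unit. Cyp4p3 (FBgn0033397) was at 267, 208 and 157 CPM in control, at 887, 793 and 675 CPM in yki3SA and at 868, 856 and 703 CPM in ITP-i. Every tumour library lay above every control library, and the libraries of yki3SA and ITP-i overlapped. Its log2 fold change was 1.90 ± 0.20 (SE, 3.73-fold, adjusted p = 0.00013) between yki3SA and control and 1.94 ± 0.20 (3.84-fold, adjusted p = 0.00025) between ITP-i and control, by edgeR's quasi-likelihood test. Between ITP-i and yki3SA the log2 fold change was 0.04 ± 0.19 (adjusted p = 0.90), and it was -0.15 with total-count scaling. Cyp4p3 was the only tested member called higher between ITP-i and control.

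Cyp4p2, the first gene of the run, rose in yki3SA and was lower again in ITP-i. It was at 7.19, 9.61 and 9.52 CPM in control, at 15.2, 15.7 and 16.3 CPM in yki3SA and at 7.91, 11.6 and 10.5 CPM in ITP-i. The yki3SA libraries lay above all others, and control and ITP-i overlapped. For Cyp4p2 the log2 fold change was 0.84 ± 0.18 (adjusted p = 0.0073) between yki3SA and control and -0.65 ± 0.18 (adjusted p = 0.031) between ITP-i and yki3SA. Without control library 3, without any 1 of the yki3SA libraries, or without ITP-i library 1 or 3, the second call was lost at adjusted p = 0.052 to 0.12. ITP-i against control gave 0.19 ± 0.18 (adjusted p = 0.59).

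Cyp4p1, the middle gene, was at 191, 227 and 141 CPM in control, at 130.4, 152 and 136 CPM in yki3SA and at 77.9, 108 and 88.5 CPM in ITP-i. The ITP-i libraries lay below all others, and yki3SA overlapped with control. It fell by 1.02 on the log2 scale between ITP-i and control (SE 0.18, 2.03-fold, adjusted p = 0.0058) and by 0.60 between ITP-i and yki3SA (SE 0.18, adjusted p = 0.041). The latter call was lost at adjusted p = 0.064 to 0.15 without control library 1, without any 1 of the yki3SA libraries, or without ITP-i library 1 or 3. Between yki3SA and control its log2 fold change was -0.42 ± 0.18 (adjusted p = 0.11).

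A ratio of neighbours within a library does not depend on how libraries are scaled. The ratio of Cyp4p3 to Cyp4p1, in counts per kb of exon, was 1.41, 0.926 and 1.12 in the control libraries, 6.86, 5.27 and 5.01 in those of yki3SA and 11.2, 7.96 and 8.01 in those of ITP-i. The 3 groups were separate, with a ratio 4.98 times that of control in yki3SA and 7.88 times that of control in ITP-i. The ratio of Cyp4p2 to Cyp4p1 was 0.0356, 0.0401 and 0.0639 in the control libraries, 0.110, 0.0980 and 0.113 in those of yki3SA and 0.0960, 0.101 and 0.113 in those of ITP-i, so both tumour groups lay above control and overlapped with each other. The ratio of Cyp4e2 to Cyp4e1 was 6.46, 8.70 and 5.78 in the control libraries, 17.2, 21.7 and 20.9 in those of yki3SA and 7.14, 8.82 and 8.57 in those of ITP-i. There, yki3SA lay above both other groups. With 3 libraries against 3 the smallest p of a two-sided exact permutation test is 0.1, and over the 33 comparisons of 11 neighbour pairs no adjusted p was under 0.157. These pairs were chosen after their values were seen.

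**Figure D3:**
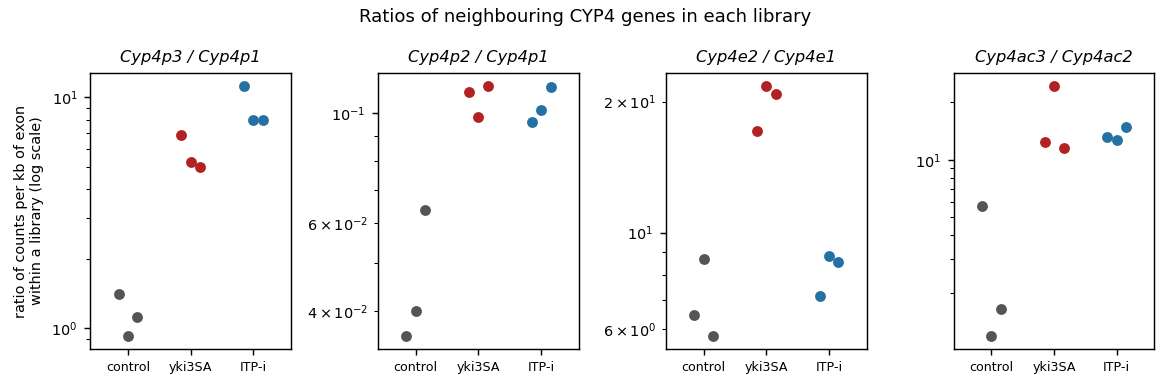
Ratio of 4 pairs of neighbouring members, in counts per kb of exon within 1 library, on a log scale, with 1 point per library and the 3 groups side by side. The Cyp4p3 to Cyp4p1 ratio is 0.926 to 1.41 in control libraries, 5.01 to 6.86 in yki3SA libraries and 7.96 to 11.2 in ITP-i libraries, and the Cyp4e2 to Cyp4e1 ratio is highest in yki3SA at 17.2 to 21.7.

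Cyp4e1 (FBgn0015034) was lowest in yki3SA and intermediate in ITP-i. It was at 103, 65.6 and 78.9 CPM in control, at 29.0, 23.7 and 21.5 CPM in yki3SA and at 49.8, 47.7 and 40.6 CPM in ITP-i. None of the 3 groups overlapped. The log2 fold change was -1.74 ± 0.18 (3.34-fold, adjusted p = 0.00013) between yki3SA and control, 0.90 ± 0.18 (adjusted p = 0.0082) between ITP-i and yki3SA and -0.84 ± 0.18 (adjusted p = 0.015) between ITP-i and control. The last of these was -0.76 without ITP-i library 3, at adjusted p = 0.051. Cyp4e1 shares 4.63% of its exon bases with Mal-A1, a maltase gene on the opposite strand that is among the gut markers used here. Mal-A1 was at 59.1, 31.2 and 30.4 CPM in control, at 2.26, 6.83 and 1.05 CPM in yki3SA and at 7.81, 3.80 and 24.0 CPM in ITP-i. Without a stated strand setting, reads in the shared bases cannot be assigned, and their part in the result was not tested.

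Cyp4e2, the neighbour of Cyp4e1 and the most abundant member per kb in control, moved less. It was at 714, 611 and 488 CPM in control, at 533, 551 and 479 CPM in yki3SA and at 381, 451 and 373 CPM in ITP-i. The ITP-i libraries lay below all others, and control and yki3SA overlapped. It fell by 0.59 on the log2 scale between ITP-i and control (SE 0.15, adjusted p = 0.036). That call was lost without control library 1 or 2, without yki3SA library 2 and without any 1 of the ITP-i libraries, at adjusted p = 0.0505 to 0.14. The other 2 comparisons gave -0.21 between yki3SA and control (adjusted p = 0.32; 0.08 with total-count scaling) and -0.38 between ITP-i and yki3SA (adjusted p = 0.11).

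Cyp4ad1, at the other end of the same run, was at 0.622, 0.644 and 0.392 CPM in control, at 0.164, 0.134 and 0.117 CPM in yki3SA and at 0.304, 0.485 and 0.353 CPM in ITP-i. The yki3SA libraries were the lowest of all, a few counts above the 0.0502 to 0.0818 CPM that 3 counts amount to in them. Its log2 fold change between yki3SA and control was -1.99 ± 0.56 (adjusted p = 0.024), and the call was lost without control library 1 or 2 or yki3SA library 2 or 3, at adjusted p = 0.069 to 0.084. The other comparisons gave 1.45 ± 0.56 for ITP-i against yki3SA (adjusted p = 0.092) and -0.54 ± 0.53 for ITP-i against control (adjusted p = 0.61).

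Cyp4e3, whose knockdown in tubules has been linked to permethrin sensitivity in the fly, varied widely within each group. It was at 205, 78.6 and 159 CPM in control, at 153, 63.7 and 70.5 CPM in yki3SA and at 179.6, 271 and 59.4 CPM in ITP-i. All groups overlapped. The log2 fold changes were -0.62 ± 0.54 (adjusted p = 0.42), 0.83 ± 0.54 (adjusted p = 0.30) and 0.20 ± 0.54 (adjusted p = 0.86) for yki3SA against control, ITP-i against yki3SA and ITP-i against control. A standard error of 0.54 leaves changes of about 2-fold in Cyp4e3 not detectable with these libraries.

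The Cyp4ac genes also differed among themselves. Cyp4ac2 was at 0.921, 1.69 and 1.63 CPM in control, at 0.191, 0.134 and 0.184 CPM in yki3SA and at 0.482, 0.612 and 0.401 CPM in ITP-i. The 3 groups did not overlap. It had the largest fall of the tested members between yki3SA and control, -3.03 ± 0.50 on the log2 scale (8.19-fold, adjusted p = 0.0018). Its yki3SA libraries held only 7, 6 and 11 counts, which limits how well the size of that fall is known. Between ITP-i and yki3SA the log2 fold change was 1.54 ± 0.49, with an adjusted p of 0.049988 that lies at the threshold. This call was lost when any 1 of the 9 libraries was left out, at adjusted p = 0.053 to 0.13. Between ITP-i and control the log2 fold change was -1.50 ± 0.46 (adjusted p = 0.071).

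Cyp4ac1 was at 2.14, 1.53 and 4.16 CPM in control, at 0.655, 0.806 and 0.619 CPM in yki3SA and at 1.09, 0.766 and 1.13 CPM in ITP-i. Both tumour groups lay below control and overlapped with each other. Its log2 fold change was -1.91 ± 0.44 (3.75-fold, adjusted p = 0.0098) between yki3SA and control, 0.52 ± 0.43 (adjusted p = 0.42) between ITP-i and yki3SA and -1.39 ± 0.43 (adjusted p = 0.074) between ITP-i and control.

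Cyp4ac3 was at 4.93, 1.88 and 2.50 CPM in control, at 2.24, 3.09 and 1.99 CPM in yki3SA and at 5.96, 7.32 and 5.56 CPM in ITP-i. The ITP-i libraries were the highest, and control and yki3SA overlapped. It rose by 1.36 ± 0.37 on the log2 scale between ITP-i and yki3SA (2.57-fold, adjusted p = 0.028), and the call was lost without yki3SA library 1 or 3 or ITP-i library 1 or 2, at adjusted p = 0.074 to 0.086. It was -0.35 ± 0.36 between yki3SA and control (adjusted p = 0.51) and 1.02 ± 0.36 between ITP-i and control (adjusted p = 0.12). The ratio of Cyp4ac3 to Cyp4ac2 per kb of exon was 5.69, 1.18 and 1.64 in the control libraries, 12.5, 24.5 and 11.5 in those of yki3SA and 13.2, 12.7 and 14.8 in those of ITP-i, above control in every tumour library.

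The Cyp4d, Cyp4ae and Cyp4s genes called were lower in yki3SA without exception. Cyp4d1 was at 3.23, 2.58 and 4.34 CPM in control, at 0.573, 0.783 and 0.0670 CPM in yki3SA and at 1.19, 1.45 and 1.30 CPM in ITP-i. The 3 groups did not overlap, and yki3SA library 3 held 4 counts. For Cyp4d1 the log2 fold change was -2.85 ± 0.68 (7.19-fold, adjusted p = 0.011) between yki3SA and control, 1.48 ± 0.66 (adjusted p = 0.13) between ITP-i and yki3SA and -1.36 ± 0.63 (adjusted p = 0.23) between ITP-i and control.

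Cyp4d8 was among the more abundant members, at 69.4, 63.9 and 41.6 CPM in control, at 38.7, 36.5 and 30.3 CPM in yki3SA and at 36.1, 49.0 and 36.2 CPM in ITP-i. The yki3SA libraries lay below control, and ITP-i overlapped with both. The log2 fold change between yki3SA and control was -0.73 ± 0.20 (adjusted p = 0.023), and the call was lost without control library 1 or 2 or yki3SA library 3, at adjusted p = 0.061 to 0.080. Values of 0.20 ± 0.20 (adjusted p = 0.52) and -0.53 ± 0.20 (adjusted p = 0.14) were found for ITP-i against yki3SA and against control. Cyp4s3 was at 61.8, 65.2 and 52.6 CPM in control, at 44.6, 50.9 and 33.8 CPM in yki3SA and at 54.1, 63.2 and 60.4 CPM in ITP-i. Again yki3SA lay below both other groups. Its log2 fold change was -0.48 ± 0.16 (adjusted p = 0.043) between yki3SA and control, a call lost without control library 1 or 2, yki3SA library 1 or 3 or any 1 of the ITP-i libraries at adjusted p = 0.052 to 0.11. For ITP-i it was 0.46 ± 0.16 against yki3SA (adjusted p = 0.062) and -0.02 ± 0.15 against control (adjusted p = 0.96; 0.08 with total-count scaling). Cyp4s3 shares 20.1% of its exon bases with Rab3-GEF on the opposite strand, a gene at 4.11, 3.92 and 7.93 CPM on average in control, yki3SA and ITP-i.

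Cyp4ae1 was at 0.771, 1.53 and 0.753 CPM in control, at 0.327, 0.246 and 0.184 CPM in yki3SA and at 0.836, 0.689 and 1.18 CPM in ITP-i. The yki3SA libraries were the lowest, and control and ITP-i overlapped. For Cyp4ae1 the log2 fold change was -2.01 ± 0.51 (4.03-fold, adjusted p = 0.016) between yki3SA and control and 1.84 ± 0.51 (3.57-fold, adjusted p = 0.032) between ITP-i and yki3SA. The first call was lost without control library 2 or yki3SA library 3 (adjusted p = 0.057 and 0.061). The second was lost without yki3SA library 2 or 3 or any 1 of the ITP-i libraries (adjusted p = 0.052 to 0.097). Against control, ITP-i gave -0.18 ± 0.49 (adjusted p = 0.87). Its level is uncertain, since 88.3% of its exon bases lie opposite the antisense gene asRNA:CR44690, and without the strand setting reads of the pair cannot be told apart. The neighbours Cyp4d2 and Cyp4d14 were listed at 0 in all 9 libraries. Antisense genes cover 98.7% of the exon bases of Cyp4d2 and 96.2% of those of Cyp4d14, so a count of 0 says little of these 2 genes here.

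Both called members of the Cyp313 group fell in yki3SA. Cyp313b1 (FBgn0037601) was at 15.4, 18.2 and 17.7 CPM in control, at 4.96, 5.93 and 5.16 CPM in yki3SA and at 8.06, 6.15 and 7.16 CPM in ITP-i. The 3 groups did not overlap, with control far above the others. The log2 fold change was -1.68 ± 0.17 (3.20-fold, adjusted p = 9.0e-05) between yki3SA and control, 0.41 ± 0.16 (adjusted p = 0.098) between ITP-i and yki3SA and -1.27 ± 0.16 (2.40-fold, adjusted p = 0.00092) between ITP-i and control.

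Cyp313a4 was at 12.1, 13.0 and 15.2 CPM in control, at 11.0, 8.37 and 7.55 CPM in yki3SA and at 13.1, 14.8 and 12.6 CPM in ITP-i. The yki3SA libraries lay below the others, and control and ITP-i overlapped. Its log2 fold change was -0.59 ± 0.18 (adjusted p = 0.031) between yki3SA and control and 0.59 ± 0.18 (adjusted p = 0.039) between ITP-i and yki3SA. The first call was lost without control library 2 or 3, yki3SA library 2 or 3 or ITP-i library 1 (adjusted p = 0.054 to 0.10), and the second without control library 2, yki3SA library 2 or 3 or any 1 of the ITP-i libraries (adjusted p = 0.052 to 0.12). ITP-i against control gave 0.01 ± 0.17 (adjusted p = 0.98).

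**Figure D4:**
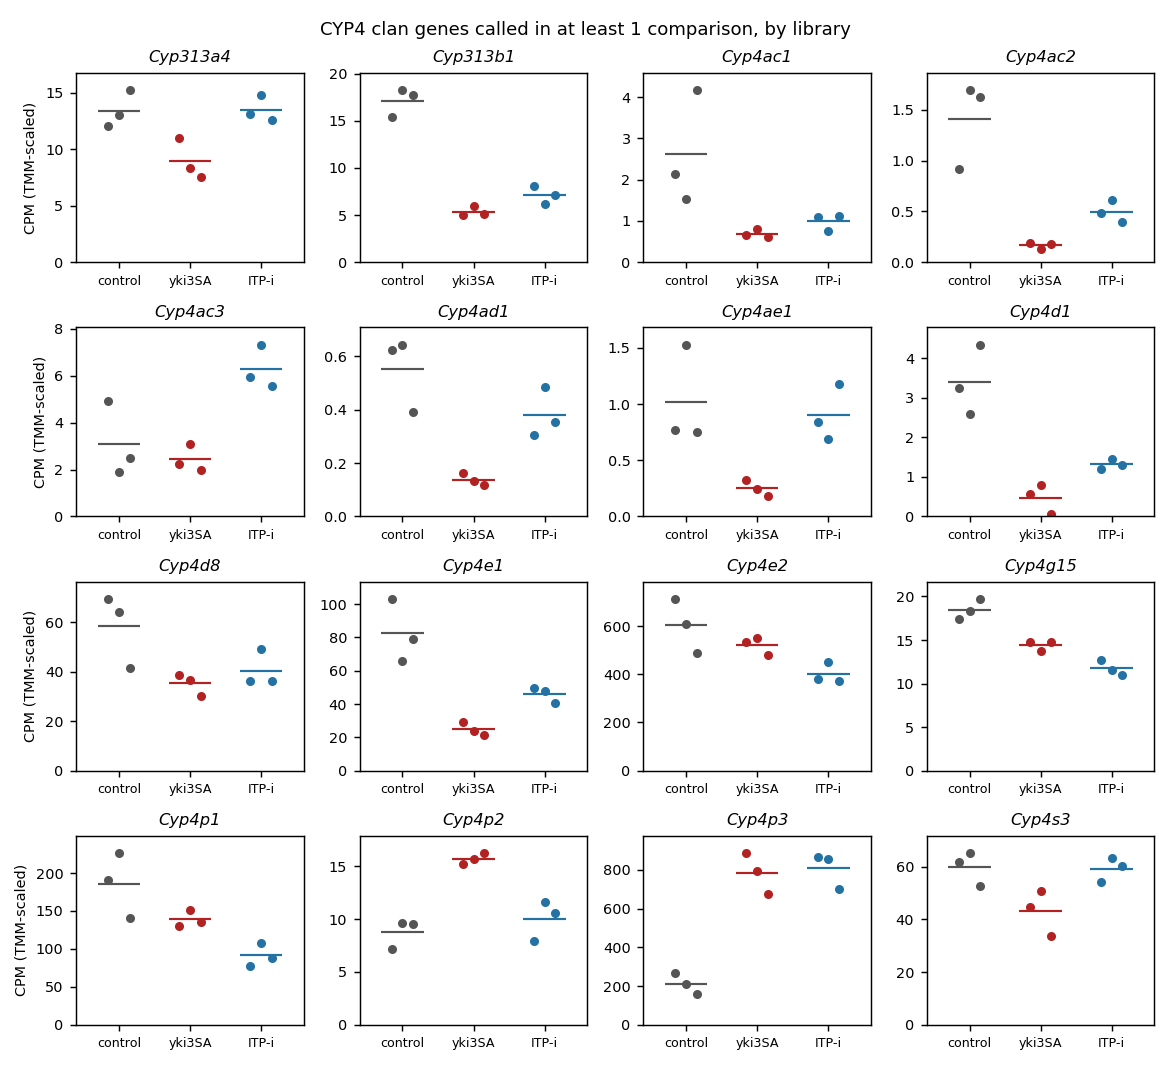
Level (CPM, TMM-scaled, linear axis from 0) of the 16 members called in at least 1 comparison, with 1 point per library and a line at the mean of the 3 libraries of a group. The yki3SA libraries lie below all control libraries for the 10 members called lower, and above them for Cyp4p2 and Cyp4p3.

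The CYP4G enzymes, which in insects turn long aldehydes into hydrocarbons, are 2 genes in the fly. Cyp4g15, known from glia, was at 17.4, 18.3 and 19.7 CPM in control, at 14.8, 13.7 and 14.7 CPM in yki3SA and at 12.7, 11.6 and 11.0 CPM in ITP-i. The groups were ordered without overlap, with control highest and ITP-i lowest. It fell by 0.65 on the log2 scale between ITP-i and control (SE 0.12, adjusted p = 0.0086). The change was -0.36 ± 0.12 between yki3SA and control (adjusted p = 0.052) and -0.29 ± 0.12 between ITP-i and yki3SA (adjusted p = 0.12).

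Cyp4g1, the enzyme of the oenocytes that supplies the hydrocarbons of the cuticle, was at 287, 188 and 1198 CPM in control, at 599.8, 257 and 284 CPM in yki3SA and at 372, 359 and 447 CPM in ITP-i. Control library 3 lay far above the rest, and all groups overlapped. The log2 fold change was -0.55 ± 0.60 (adjusted p = 0.53) between yki3SA and control, 0.05 ± 0.60 (adjusted p = 0.97) between ITP-i and yki3SA and -0.51 ± 0.60 (adjusted p = 0.68) between ITP-i and control. Without control library 3 the first was 0.65 and the last 0.71, so the sign of both rests on that library, and with total-count scaling the second was -0.13. Oenocytes lie under the cuticle and not in the tubule, and 8 marker genes of theirs were examined. Together they summed to 40.3, 26.4 and 162 CPM in the control libraries, 57.4, 28.2 and 32.7 in those of yki3SA and 60.0, 52.0 and 64.1 in those of ITP-i, highest in control library 3 as well. The fatty acid synthase gene FASN2 was at 12.2, 8.37 and 47.3 CPM in control. Of the 7 tested markers, 6 were highest in control library 3. The exception was FarO, a fatty acyl-CoA reductase gene, at 2.20 CPM there against 2.42 CPM in yki3SA library 2. None of the 7 was called in any comparison, and their part in the level of Cyp4g1 was not tested.

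**Figure D5:**
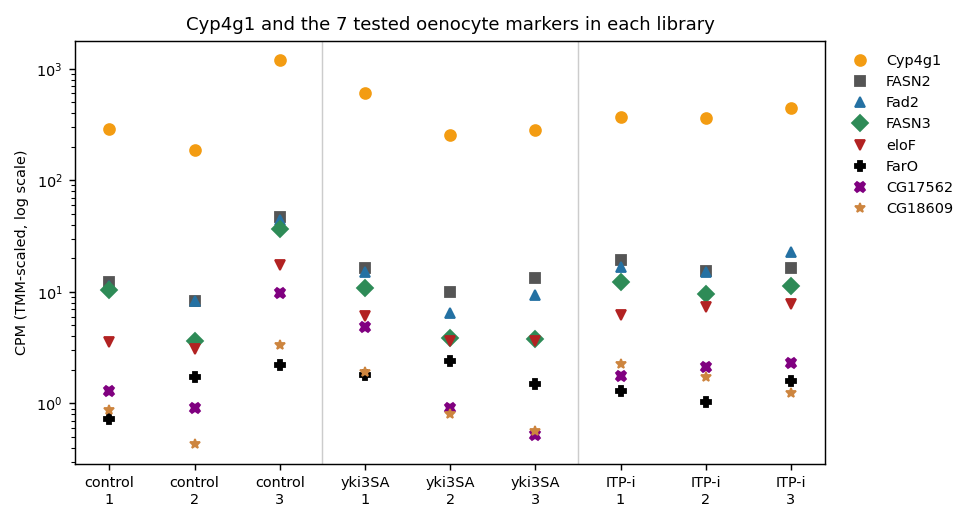
Level (CPM, TMM-scaled, log scale) of Cyp4g1 and of the 7 tested oenocyte markers in each of the 9 libraries, 1 symbol per gene. Cyp4g1 is highest in control library 3 at 1198 CPM, as are 6 of the 7 markers, and FarO is not, at 2.20 CPM there and 2.42 CPM in yki3SA library 2.

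The remaining 7 tested members were called in no comparison. Cyp4d20 averaged 2.46 ± 0.89, 0.980 ± 0.471 and 2.41 ± 0.36 CPM (SD, n = 3) in control, yki3SA and ITP-i, and its yki3SA libraries lay below both other groups without overlap, at adjusted p = 0.052 and 0.070 in edgeR. Cyp318a1 averaged 8.31 ± 0.90, 5.97 ± 0.99 and 8.36 ± 0.98 CPM, likewise without overlap between yki3SA and the others (adjusted p = 0.089 and 0.099). Cyp311a1, its neighbour, averaged 0.957 ± 0.281, 0.311 ± 0.171 and 0.197 ± 0.105 CPM, with log2 fold changes against control of -1.63 ± 0.65 in yki3SA (adjusted p = 0.085) and -2.26 ± 0.67 in ITP-i (adjusted p = 0.062). These p-values miss the threshold of 0.05 and do not show that the levels are alike. Cyp312a1 was at 0.0995 to 0.791 CPM in the other libraries and at 4.74 CPM in ITP-i library 3, which stood apart (adjusted p = 0.084 between ITP-i and control). Cyp313a3, Cyp316a1 and Cyp4aa1 averaged 0.529 to 2.03 CPM in every group, with overlapping libraries throughout.

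Of the 7 members that were not tested, 2 had no count. Cyp4d21, known as sex-specific enzyme 1 and active in the male head, had 1, 1 and 1 counts in the control libraries, 1, 0 and 0 in those of yki3SA and 5, 8 and 12 in those of ITP-i. The ITP-i libraries were the highest, at levels too low for the test. Cyp313a1 had 5, 53 and 45 counts in the control libraries, 0, 4 and 8 in those of yki3SA and 2, 8 and 6 in those of ITP-i, so 2 control libraries stood above the rest. Cyp4c3 reached at most 5 counts, Cyp313a5 at most 1 and Cyp313a2 at most 15 in any library. A count of 0 allows up to 3 counts, or 0.0904 CPM in the library where that floor is highest, and such limits cover counting error only.

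The partners of microsomal P450 enzymes moved in different directions. Cpr, the reductase that feeds electrons to them, was at 563, 619 and 752 CPM in control, at 392, 467 and 414 CPM in yki3SA and at 402, 498 and 426 CPM in ITP-i. Every tumour library lay below every control library, and Cpr fell by 0.60 on the log2 scale in yki3SA (SE 0.14, adjusted p = 0.011) and by 0.54 in ITP-i (SE 0.14, adjusted p = 0.038). Cytochrome b5 (Cyt-b5), the second electron carrier, was at 269, 286 and 297 CPM in control, at 511, 394 and 395 CPM in yki3SA and at 266, 259 and 275 CPM in ITP-i. The yki3SA libraries were the highest, with log2 fold changes of 0.61 ± 0.12 against control (adjusted p = 0.0056) and -0.70 ± 0.12 for ITP-i against yki3SA (adjusted p = 0.0048). Of the 7 tested electron donors, 1 was higher and 4 were lower in yki3SA than in control, against 16.2% and 14.0% of all genes.

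Genes of fatty acid oxidation, into which products of CYP4 enzymes can feed, were also lower in yki3SA. Of 22 tested genes, 1 was higher and 10 were lower in yki3SA than in control, 5 were higher and none lower in ITP-i than in yki3SA, and none was higher and 2 were lower in ITP-i than in control. Over all genes, the shares higher and lower were 16.2% and 14.0%, 10.6% and 10.1%, and 6.37% and 4.14% in these comparisons. Median log2 fold changes of the fatty acid oxidation genes were -0.31, 0.23 and -0.08 against 0.07, -0.04 and 0.00 over all genes. In the CYP3 clan, the larger P450 clan of the fly, 3 of 36 tested genes were higher and 12 lower in yki3SA than in control, with a median of -0.25. Its summed level was 5293 to 7259 CPM in control and 2656 to 3286 CPM in yki3SA, without overlap. The CYP3 sum includes Cyp6g1, with a control mean of 2180 CPM and a yki3SA mean of 71.4 CPM. It also includes Cyp6a18, whose means were 1420 and 439 CPM in the same order. The CYP3 sum therefore does not speak for the whole clan, where 21 of 36 tested genes were not called between these groups. The summed level of the CYP4 clan was 1593 to 2409 CPM in control and 1788 to 2477 CPM in yki3SA, which overlapped. It was 1878 to 2275 CPM in ITP-i. That sum includes Cyp4p3, which averaged 211 CPM in control and 785 CPM in yki3SA.

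Many markers of gut, fat body and ovary were also lower in yki3SA than in control, where 14.0% of all genes were called lower. Muscle, neuron and oenocyte markers had no call in that comparison. Their median log2 fold changes were -0.33, -0.89 and -0.86, against 0.07 over all genes. The muscle sum was 322 to 342 CPM in control libraries and 236 to 321 in yki3SA libraries. For neuron markers it was 28.0 to 32.7 and 19.9 to 25.3 CPM. Of 9 tested hemocyte markers, 1 was higher and 3 were lower in yki3SA than in control. The hemocyte sum was 220 to 237 CPM in control libraries, 250 to 274 in yki3SA libraries and 253 to 272 in ITP-i libraries. The median log2 fold change of these markers between yki3SA and control was -0.14, so that sum does not speak for the list. Of 23 tested gut enterocyte markers, 16 were lower in yki3SA than in control and 10 higher in ITP-i than in yki3SA, and their sum was 569 to 1622 CPM in control libraries, 32.1 to 208 in yki3SA libraries and 238 to 565 in ITP-i libraries, with Npc2e at 0 throughout. Of 13 fat body markers, 6 were lower in yki3SA than in control, and 6 were higher and 1 (Obp99b) lower in ITP-i than in yki3SA, with sums of 2448 to 5821, 178 to 361 and 2015 to 3711 CPM. Of 17 ovary markers, 12 were lower and then 9 higher, with sums of 127 to 318, 6.45 to 22.1 and 45.9 to 138 CPM. Markers of the tubule's own principal cells moved the same way, with 5 of 9 lower in yki3SA than in control and 5 of 9 higher in ITP-i than in yki3SA. Between ITP-i and control, 1 gut marker was higher and 6 were lower, 2 fat body markers were lower, no ovary marker was called, and 1 principal cell marker was higher and 1 lower. In bulk tissue, fewer cells of a type and less RNA per cell cannot be told apart, and the part of these cells in the result was not tested. Cyp4p2 and Cyp4p3 rose in yki3SA. There the sums of the gut, fat body, ovary and principal cell lists were lowest. The hemocyte sum was above that of control in yki3SA and in ITP-i alike. Any link of these sums to Cyp4p2 and Cyp4p3 was not tested.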

How the data were processed

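The authors deposited 1 table of whole-number counts per gene, with 1 column per library and no normalization. TopHat, HTSeq, Cufflinks and DESeq are listed as tools, per the submitters' processing notes. Versions, genome build, annotation release and strand setting were not given in the sources used here, so no coordinates are reported. Of the 17611 genes, 59 have no symbol. Total counts of 34640437 to 49338340 per library set the precision of low genes. Replicates differed by far more than counting noise (chi-square per degree of freedom 47.7 to 139.8), so none was counted as a repeat.

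Counts were fitted in R 4.3.3 with edgeR 4.0.16 (filterByExpr, TMM scaling, quasi-likelihood test, all 9 libraries with a term for group, 6 residual degrees of freedom). A gene was called at a Benjamini-Hochberg adjusted p under 0.05 over the 10253 genes tested. Log2 fold changes use a prior count of 0.125 and are given with their standard errors. CPM are scaled with TMM factors, and CPM per kb use exon lengths of the Ensembl annotation, whose build may differ from the authors'. Groups and replicates come from the labels. The script was tested on simulated data.

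Every member is accounted for. Members called in any comparison, and Cyp4e3, Cyp4g1 and Cyp4g15, are given with their values and all 3 comparisons, and Cyp4d21, which was not tested, with its counts. Of other lists the text gives counts and medians, with values for Cpr, Cyt-b5 and FASN2. FarO, Mal-A1, Rab3-GEF, Cyp6g1, Cyp6a18, Ho and the gene pairs were added after their values were seen. The members, gene lists and marker lists were chosen with earlier results of these data known. Alternatives were DESeq2 1.42.0, limma-voom (limma 3.58.1), other scalings and filters, robust dispersion, fits of 2 groups, a replicate block and fits without single libraries.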

Additional observations from a re-analysis of the deposited data

How the results depend on the processing

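Of the 25 calls of members, 12 held in all alternatives that could be run and none reversed. Between yki3SA and control these were Cyp313b1, Cyp4ac1, Cyp4ac2, Cyp4d1, Cyp4e1, Cyp4p2 and Cyp4p3, between ITP-i and yki3SA Cyp4e1, and between ITP-i and control Cyp313b1, Cyp4g15, Cyp4p1 and Cyp4p3. Leaving out 1 library at a time gave 7 to 12 members called between yki3SA and control, 1 to 5 between ITP-i and yki3SA, 4 to 7 between ITP-i and control and 1 to 4 that moved back, meaning called in opposite directions in the first 2 comparisons. Without both tumour libraries numbered 3, chosen after seeing the data, these counts were 7, 1, 5 and 1. Without the filter on low counts, 4 members were called between ITP-i and yki3SA and 2 moved back. DESeq2 called 10 members between ITP-i and control. Total-count scaling left 3 that moved back. Whether the replicate numbers pair the libraries is not settled. Correlations of deviations from the group mean were -0.0815 to 0.175 for same-numbered libraries and -0.259 to 0.143 for the others. With a replicate block 12, 5 and 6 members were called and 3 moved back. Over all genes the block called 3189, 2287 and 1137, against 3091, 2126 and 1077 in the main fit. The block lost the calls of Cyp4ac2, Cyp4ae1 and Cyp313a4 between ITP-i and yki3SA (adjusted p = 0.084, 0.056 and 0.056) and added that of Cyp4s3 (0.033). The cause of these shifts was not tested, beyond the fewer libraries or other set of genes that a setting itself brings.

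Changes of sign were limited to values that were not called. With total-count scaling the log2 fold change was 0.076 for Cyp4e2 (yki3SA against control), -0.13 for Cyp4g1 and -0.15 for Cyp4p3 (ITP-i against yki3SA) and 0.076 for Cyp4s3 (ITP-i against control). Without both tumour libraries numbered 3, Cyp4g1 was at -0.23 between ITP-i and yki3SA. Cyp313a4 between ITP-i and control was at -0.0086 with DESeq2 size factors, at -0.0083 in the DESeq2 test and at -0.0024 after upper-quartile scaling. Leaving out 1 library, log2 fold changes between ITP-i and control ranged from -0.074 to 0.093 for Cyp313a4, -0.41 to 0.23 for Cyp4ae1, -0.32 to 0.61 for Cyp4e3, -0.93 to 0.71 for Cyp4g1 and -0.11 to 0.046 for Cyp4s3. Between yki3SA and control they ranged from -0.64 to 0.13 for Cyp4ac3 and -1.07 to 0.65 for Cyp4g1, and between ITP-i and yki3SA from -0.16 to 0.56 for Cyp4g1 and -0.046 to 0.16 for Cyp4p3.

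Over all genes, the share of calls that were higher between yki3SA and control was 53.7% with TMM scaling and 77.9% with total counts. Between ITP-i and yki3SA it was 51.2% with TMM, 63.1% with the upper quartile and 28.2% with total counts, and between ITP-i and control it was 60.6% with TMM and 71.9% with total counts. Depth limits the members under 1 CPM, and the spread of 3 libraries limits Cyp4e3 and Cyp4g1.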

Other observations

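Other P450 genes and the genes that serve them were counted in the same way. Over all genes tested, 16.2% were higher and 14.0% lower in yki3SA than in control. The shares were 10.6% and 10.1% in ITP-i against yki3SA, and 6.37% and 4.14% in ITP-i against control. The counts of these short lists were not tested against those shares. The mitochondrial P450 clan includes some of the enzymes of ecdysone synthesis. Of its 10 tested genes, 2 were lower and none higher in yki3SA than in control. In ITP-i, 2 were lower than in yki3SA and 3 were lower than in control. In the CYP2 clan 1 of 4 tested genes was lower in yki3SA than in control. In the CYP3 clan 8 of 36 tested genes were higher and 3 lower in ITP-i than in yki3SA, and 3 were higher and 8 lower in ITP-i than in control. Haem is the cofactor of P450 enzymes. Of 9 genes of haem synthesis and breakdown, 2 were higher and 1 lower in yki3SA than in control. In ITP-i 2 were lower than in yki3SA, and 1 was higher and 1 lower than in control. Ho, the breakdown gene of the list, was among those higher in yki3SA than in control and lower in ITP-i than in yki3SA. Of 11 transcription factors that sense foreign compounds or lipids, 4 were higher and none lower in yki3SA than in control, and 2 were lower in ITP-i than in yki3SA. The 12 genes of very long chain fatty acid and hydrocarbon synthesis make the substrates of the CYP4G enzymes. They gave 1 higher and 3 lower in yki3SA than in control and 1 higher and 1 lower in ITP-i than in yki3SA. In ITP-i 3 were lower than in control. Their median log2 fold changes were -0.79, 0.27 and -0.33. Among these genes are the 7 tested oenocyte markers, none of which was called. All of these markers but FarO were highest in control library 3, and their part in the medians was not tested.

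The remaining marker lists gave these counts, with no call in a comparison that is not named. They were likewise not tested against the shares over all genes given above. Of 6 stellate cell markers, 3 were lower in yki3SA than in control, 1 was higher in ITP-i than in yki3SA and 1 was lower in ITP-i than in control. Neither of the 2 stem cell markers was called. Of 9 tested hemocyte markers, 1 was higher and 3 were lower in yki3SA than in control, 2 were higher in ITP-i than in yki3SA and 1 was lower in ITP-i than in control. Of 8 tested muscle markers, 4 were higher in ITP-i than in yki3SA. Of 6 trachea and epidermis markers, 1 was lower in yki3SA than in control and 2 were higher in ITP-i than in yki3SA. Of 6 tested neuron markers, 1 was lower in ITP-i than in yki3SA and 1 was lower in ITP-i than in control.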
